A study of Mus musculus with 3 samples.

Results

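Expression of 8 genes that encode peripheral myelin proteins (Mbp, Pmp22, Prx, Mag, Mal, Cnp, Drp2 and Ncmap) was examined in LepR+ cells sorted from the superior cervical ganglion of the mouse, a sympathetic ganglion at the top of the neck. The genes were taken by name from the 52550 genes of the expression table, and each of the 8 matched 1 gene. Their measured values played no part in the choice, although it was made with earlier results of these data known. The only group consisted of live, yellow fluorescent protein positive cells from male LepRCRE::Ai32 mice aged 10 weeks, with 3 libraries labelled as biological replicates (n = 3 throughout) and no control. Ai32 is a Cre-dependent channelrhodopsin reporter, so yellow fluorescence marks any cell in which Cre made at the leptin receptor locus has acted, whether or not the cell still makes the receptor. The sources used here do not give the number of cells or animals per library.

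Myelinating Schwann cells wrap a peripheral axon in many turns of membrane. Pmp22 and Mbp belong to compact myelin, where the turns are held tightly together, while Mag, Cnp and Ncmap belong to the non-compact parts of the sheath. Periaxin (Prx) and Drp2 join dystroglycan in a complex that ties the outer surface of the sheath to the basal lamina, and Mal is a proteolipid of lipid-rich membrane. Most sympathetic postganglionic axons are not myelinated. Satellite glia around the neuron bodies and non-myelinating Schwann cells make up much of the glia of the ganglion, and some genes named for myelin are also active in such cells.

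The 8 genes split into 4 that were abundant and 4 that were barely read. Pmp22, Mal, Cnp and Mbp had means of 1336, 503, 217 and 49.2 TPM (a measure corrected for gene length and library total), whereas Drp2, Ncmap, Prx and Mag all stayed below 1 TPM in every library. All 8 had at least 1 read in at least 1 library, which was the condition for entering the test. In limma's moderated test of mean log2(TPM + 1) against its value at 1 TPM, adjusted over all 27396 genes with a read, Pmp22, Mal, Cnp and Mbp lay above 1 TPM and Mag below it, and 3 were called neither. Over all genes tested, 16.2% were called above and 13.5% below, and 24.5% had at least 1 TPM in each library, as the same 4 of the 8 did. The median of the 8 genes was 2.75 on the log2(TPM + 1) scale, beside 0.89 for all genes tested. Without replicate 1 or replicate 2, limma called 0 of the 8 genes, and 0 of all genes, above 1 TPM after adjustment. At an unadjusted p under 0.05 it called 4 of the 8 above in either case.

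The windows around the annotated transcription starts are shown for a highly abundant gene, for Cnp and for 2 barely read genes, so that the starts can be compared with the levels. Each runs from 250 bases before to 50 bases after a start in RefSeq (GRCm38.p6) and is written 5′ to 3′ with CG dinucleotides in capitals. Pmp22 has 4 such windows, of which the most upstream and the most downstream are given, and Mag has 3, of which the one given starts at 30914863.
Pmp22, upstream start, chr11:63128732-63129031, forward strand: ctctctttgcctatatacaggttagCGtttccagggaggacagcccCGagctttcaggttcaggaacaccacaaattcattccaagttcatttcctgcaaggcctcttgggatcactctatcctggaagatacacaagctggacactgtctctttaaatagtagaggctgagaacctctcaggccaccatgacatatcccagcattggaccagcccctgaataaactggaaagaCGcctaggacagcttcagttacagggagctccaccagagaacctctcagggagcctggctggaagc
Pmp22, downstream start, chr11:63132553-63132852, forward strand: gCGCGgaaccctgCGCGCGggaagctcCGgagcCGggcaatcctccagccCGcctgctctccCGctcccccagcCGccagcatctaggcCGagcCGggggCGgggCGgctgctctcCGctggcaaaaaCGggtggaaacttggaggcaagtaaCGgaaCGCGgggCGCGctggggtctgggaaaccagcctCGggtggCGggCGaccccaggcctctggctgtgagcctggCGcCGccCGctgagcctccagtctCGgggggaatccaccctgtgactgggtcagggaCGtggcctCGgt
Cnp, chr11:100574689-100574988, forward strand: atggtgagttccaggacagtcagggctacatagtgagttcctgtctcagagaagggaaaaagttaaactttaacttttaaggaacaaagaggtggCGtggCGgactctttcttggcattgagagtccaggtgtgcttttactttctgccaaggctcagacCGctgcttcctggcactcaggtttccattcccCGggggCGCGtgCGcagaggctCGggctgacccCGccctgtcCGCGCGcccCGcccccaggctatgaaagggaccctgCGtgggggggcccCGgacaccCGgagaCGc
Prx, chr7:27499074-27499373, forward strand: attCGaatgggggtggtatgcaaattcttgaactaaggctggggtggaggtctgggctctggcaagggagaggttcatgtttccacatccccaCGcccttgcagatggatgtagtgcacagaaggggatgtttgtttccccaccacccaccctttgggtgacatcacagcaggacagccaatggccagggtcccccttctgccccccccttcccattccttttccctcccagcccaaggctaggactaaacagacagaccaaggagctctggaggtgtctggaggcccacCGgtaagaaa
Mag, chr7:30914814-30915113, reverse strand: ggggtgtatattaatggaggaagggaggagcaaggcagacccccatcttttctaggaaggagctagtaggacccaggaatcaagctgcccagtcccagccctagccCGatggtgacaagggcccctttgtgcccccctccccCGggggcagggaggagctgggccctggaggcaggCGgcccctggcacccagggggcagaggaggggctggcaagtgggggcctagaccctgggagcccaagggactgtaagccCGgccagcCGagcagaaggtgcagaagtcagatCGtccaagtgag
The upstream Pmp22 window held 3 CG dinucleotides and the downstream one 30, at 50.7% and 72.3% G + C. The Cnp window held 17, the Mag window 6 and the Prx window 3, beside a median of 7 over 32851 RefSeq windows of the same length. The single Mal window held 8, and the 2 Ncmap windows held 22 and 9. The other Pmp22 windows held 18 and 20, and the other Mag windows 3 each. Among these 6 genes, the CG counts of abundant and barely read genes thus overlapped. Mbp and Drp2 were not part of this comparison. Reads per gene do not show which start was used. The letters ACAAAG, a core that SOX factors recognise, were searched on both strands and were found once in the Cnp window and once in the Mag window shown, against 18.7% of all windows. None of the windows of these 6 genes held GTGGGCG, a core recognised by EGR factors, or TATAAA on either strand, which 7.97% and 13.6% of all windows did.

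Pmp22 encodes a tetraspan protein of compact myelin whose extra copy causes a hereditary neuropathy in humans. It lies on chromosome 11, 63128982 to 63159547 of GRCm38, forward strand, with 5 annotated transcripts. Pmp22 had 1409, 1258 and 1342 TPM in replicates 1, 2 and 3, from 8477, 7576 and 7558 reads. The 3 libraries lay within a factor of 1.12 of each other, and in each of them 99.8% of the genes tested had a lower TPM value. The mean of 1336 ± 76.1 TPM (SD, n = 3) exceeded 1 TPM by 9.38 on the log2(TPM + 1) scale in limma's test ( adjusted p = 0.00336).

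Mal encodes a proteolipid of membrane rafts that takes part in sorting proteins to the cell surface (chromosome 2, 127633226 to 127656695, reverse strand). Mal had 662, 376 and 472 TPM, from 4698, 2670 and 3137 reads. Replicate 1 was the highest and replicate 2 the lowest, by a factor of 1.76. The mean of 503 ± 146 TPM (SD, n = 3) exceeded 1 TPM by 7.94 on the log2 scale (limma, adjusted p = 0.00336).

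Cnp encodes a cyclic nucleotide phosphodiesterase that keeps cytoplasmic channels open in non-compact myelin (chromosome 11, 100574904 to 100591729, forward strand). Cnp had 161, 253 and 235 TPM, from 1501, 2359 and 2048 reads, so that replicate 1, the highest for Mal, was the lowest for Cnp. The mean of 217 ± 48.7 TPM (SD, n = 3) exceeded 1 TPM by 6.74 on the log2 scale (limma, adjusted p = 0.00336). Dnajc7, a co-chaperone gene on the opposite strand with 20.3, 59.6 and 8.18 TPM, shares 154 of the 3639 exon bases of Cnp. The sources used here do not say whether counting used strand, so reads in the shared bases cannot be told apart.

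Mbp encodes the basic protein that joins the cytoplasmic faces of compact myelin (chromosome 18, 82475146 to 82585637, forward strand, 16 annotated transcripts). Mbp had 12.4, 106 and 29.4 TPM, from 265, 2273 and 592 reads. Replicate 2 was 8.56 times replicate 1, the widest range of the 4 abundant genes. The mean of 49.2 ± 49.7 TPM (SD, n = 3) exceeded 1 TPM by 4.14 on the log2 scale, close to the threshold (limma, adjusted p = 0.0488). Leaving out replicate 1, 2 or 3 gave limma's adjusted p = 0.0897, 0.0852 and 0.201, so the call needed all 3. The locus also produces golli transcripts, which are made outside myelin, and a value per gene does not separate them from the transcripts of the myelin protein.

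**Figure D1:**
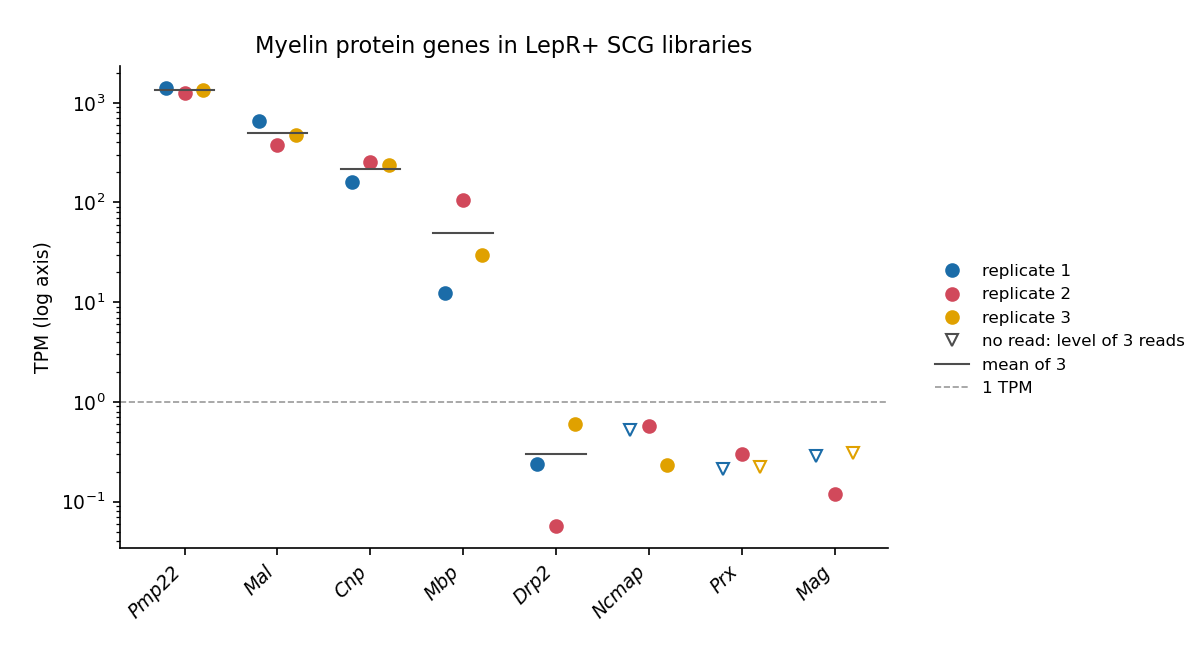
Levels of the 8 myelin protein genes in the 3 libraries. The vertical axis is TPM on a log scale, each point is a library and the dashed line marks 1 TPM. An open point is a library without a read, drawn at the level that 3 reads would give. The bar is the mean, drawn only for genes with a read in every library. Pmp22, Mal, Cnp and Mbp lie above the line in every library, and Drp2, Ncmap, Prx and Mag below it in every library.

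The other 4 genes together had 5, 9 and 13 reads in the 3 libraries. Drp2, the dystrophin-related protein that binds periaxin (chromosome X, 134404551 to 134456573, forward strand), had 5, 1 and 12 reads, which made 0.240, 0.0571 and 0.598 TPM. Ncmap, a membrane protein of non-compact myelin (chromosome 4, 135369576 to 135398227, reverse strand), had no read in replicate 1 and 3 reads and 1 read in replicates 2 and 3. Drp2 thus had a read in every library and Ncmap in 2 of 3.

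Prx, which encodes the scaffold of the Drp2 complex (chromosome 7, 27499324 to 27520214, forward strand), had 4 reads in replicate 2 (0.298 TPM) and none in the others. Mag, the sialic acid binding adhesion protein that faces the axon (chromosome 7, 30899176 to 30914873, reverse strand), had 1 read in replicate 2 (0.120 TPM) and none in the others. All 5 reads on Prx and Mag came from replicate 2, the library that was also highest for Mbp. At this depth 3 reads, the number that a count of 0 still allows, correspond to 0.210, 0.210 and 0.225 TPM for Prx in the 3 libraries and to 0.288, 0.288 and 0.308 TPM for Mag. Such floors cover counting error only, because the reads are PCR copies without molecular identifiers.

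Mag was called below 1 TPM, by -0.92 on the log2(TPM + 1) scale, and close to the threshold (limma, adjusted p = 0.0488). Prx, Ncmap and Drp2 were not called (limma, adjusted p = 0.0508, 0.0934 and 0.0992). The number of the 8 genes called below 1 TPM ran from 0 to 4 over the alternative settings, so the reads are a firmer description of these genes than the calls. Gm15541, on the opposite strand, shares 300 of the 5579 exon bases of Prx.

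In total the 8 genes held 0.225%, 0.199% and 0.208% of TPM in replicates 1, 2 and 3. Pmp22 made up 63.5% ± 0.939 of that sum, Mal 23.7% ± 5.38, Cnp 10.4% ± 2.87 and Mbp 2.42% ± 2.53 (SD, n = 3). The order Pmp22, Mal, Cnp, Mbp held in each library. Within libraries, Pmp22 exceeded Mal by 1.45 ± 0.33 on the log2(TPM + 1) scale, Mal exceeded Cnp by 1.20 ± 0.75 and Cnp exceeded Mbp by 2.60 ± 1.21 (SD, n = 3). Mbp in turn exceeded Drp2 by 4.78 ± 1.68. Each of these 4 differences had its direction in 3 of 3 libraries, where an exact two-sided sign-flip test gives p = 0.25, the smallest that 3 libraries allow.

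Below that, 2 of the 3 pairs of neighbours did not differ beyond their spread. Drp2 and Ncmap differed by 0.02 ± 0.51, with Drp2 higher in 2 of 3 libraries, and Prx and Mag by 0.06 ± 0.13, with Prx higher in 1 of 3 (exact sign-flip p = 1 for both). The other pair had the same direction in 3 of 3 libraries, with Ncmap above Prx by 0.20 ± 0.14 (exact sign-flip p = 0.25). In replicate 1 neither Ncmap nor Prx had a read, so their direction there comes from gene length alone. The same holds for Prx and Mag in replicates 1 and 3. In replicate 2, the only library with reads on Prx or Mag, Prx was higher, with 4 reads against 1.

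The spread between libraries differed between members. Pmp22 had an SD of 0.08 on the log2(TPM + 1) scale, and among the 84 genes within 1 log2 unit of its level the median SD was 0.37 and 2.38% had a smaller one. Mal (SD 0.41) and Cnp (SD 0.35) stood nearer the median SD of genes at their levels, which was 0.48 over 361 genes and 0.58 over 990 genes. Mbp, with an SD of 1.51, was above the median of 1.19 over 2905 genes at its level, 62.8% of which had a smaller SD. Pmp22 and Mbp, both of compact myelin, thus differed in level by 5.25 ± 1.59 on the log2 scale (SD, n = 3), and most of that spread was from Mbp.

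**Figure D2:**
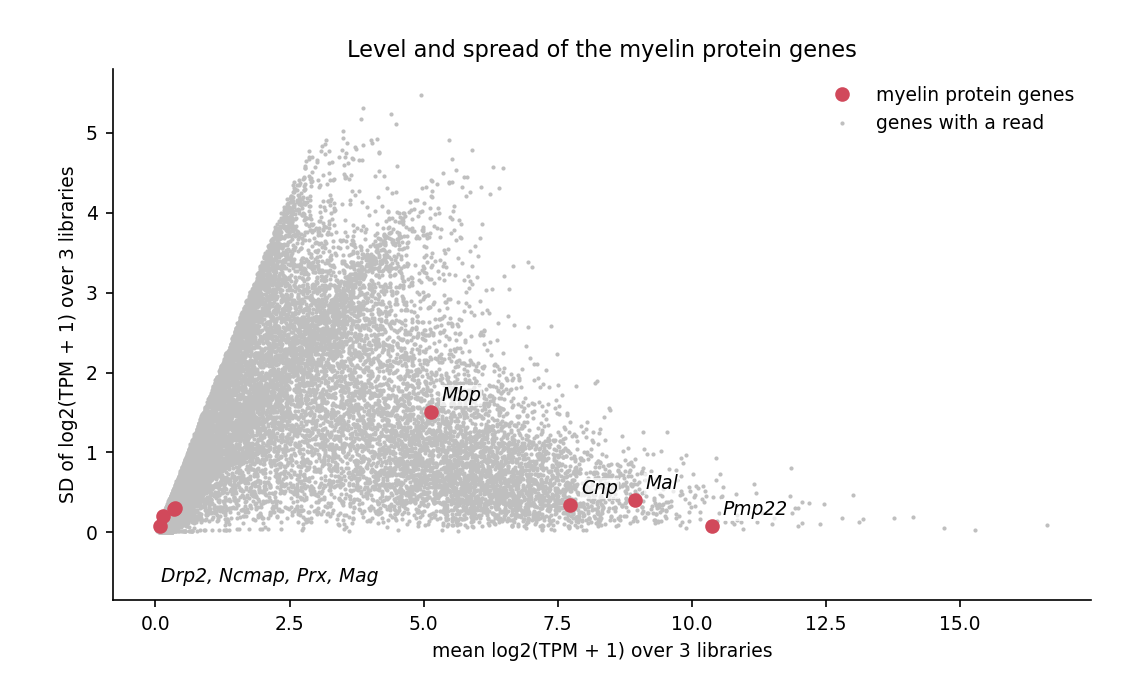
Level and spread of each gene with a read. The horizontal axis is the mean and the vertical axis the SD of log2(TPM + 1) over 3 libraries, grey points are all genes tested and red points the 8 myelin protein genes. Pmp22 lies low at the right with an SD of 0.08, Mbp lies at an SD of 1.51, and the 4 barely read genes lie together at the lower left, where the 1 TPM added before the log compresses differences between libraries.

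The protein families of these genes were read unevenly. Emp1, Emp2 and Emp3, the epithelial membrane proteins most like Pmp22, were all above 1 TPM. Emp1 had 58.9, 50.2 and 47.2 TPM, Emp2 had 310.1, 501 and 241 TPM and Emp3 had 145, 264 and 228 TPM. Pmp22 exceeded each of them in 3 of 3 libraries, by 1.99 ± 0.60 over Emp2, 2.69 ± 0.53 over Emp3 and 4.66 ± 0.13 over Emp1 on the log2(TPM + 1) scale (SD, n = 3). Lim2, the lens member of the family, had no read in any library.

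In the family of Mal the leading gene was Cmtm5, a MARVEL domain protein, with 1054, 1057 and 603 TPM. Mal was lower than Cmtm5 in 3 of 3 libraries, by -0.84 ± 0.59 on the log2 scale (SD, n = 3). Mall, a close relative of Mal, had no read in replicate 1 and 310 and 209 reads in replicates 2 and 3. Mal2 had 3 reads, all in replicate 3, and Pllp (plasmolipin), a proteolipid of peripheral myelin, had no read in any library, where 3 reads would be 0.564, 0.563 and 0.602 TPM. Of the 14 genes listed for this family, 3 lay above 1 TPM (Mal, Cmtm5 and, at a mean of 14.2 ± 6.39 TPM, Cmtm7) and 2 lay below (Marveld2 and Marveld3, with 1 read each in all). All genes tested had shares of 16.2% above and 13.5% below. Cmtm6 had 3.90, 101 and 49.2 TPM, Cmtm3 had 57.6, 47.4 and 4.79 TPM, and Marveld1 had 70.1, 8.47 and 0.51 TPM. These 3 were called neither, nor were Myadm, Cmtm4 and Cmtm8, whose highest library values were 15.6, 4.01 and 1.38 TPM.

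Drp2 was the lowest of the dystrophins. Dmd (dystrophin) had 245, 250.04 and 202 TPM and Utrn (utrophin) 185, 174 and 87.9 TPM. Drp2 lay below Dmd by -7.50 ± 0.47 and below Utrn by -6.80 ± 0.87 on the log2 scale (SD, n = 3), in 3 of 3 libraries each. Of the dystrobrevins, Dtna was above 1 TPM with 48.4, 64.4 and 11.9 TPM (limma, adjusted p = 0.0389), and Dtnb had 0, 7 and 4 reads. Ahnak, the large scaffold protein related to periaxin, had 221, 397 and 199 TPM, so Prx lay below it by -7.88 ± 0.34 (SD, n = 3). Ahnak2 was uneven, with 11.5, 0.0621 and 0.863 TPM.

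Mag belongs to the sialic acid binding lectins, most of which are found on white blood cells. Of the 9 listed, including Mag, 0 lay above 1 TPM in limma's test, 2 lay below and 6 were called neither, with Siglec15 unread. At an unadjusted p under 0.05, or with a mean-variance trend, 0 lay above as well. The adjusted shares over all genes tested were 16.2% above and 13.5% below. Several of these lectins had nearly all of their reads in 1 library. Siglecf had 543 reads in replicate 3 and none in the others, Siglecg had 530 reads in replicate 1 against 4 and 3 in the others, and Cd33 had 131 reads in replicate 3 against 1 in each of the others. Cd22 had 5 reads, all in replicate 3. Siglec1, Siglece and Siglech had no more than 2 reads in any library.

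**Figure D3:**
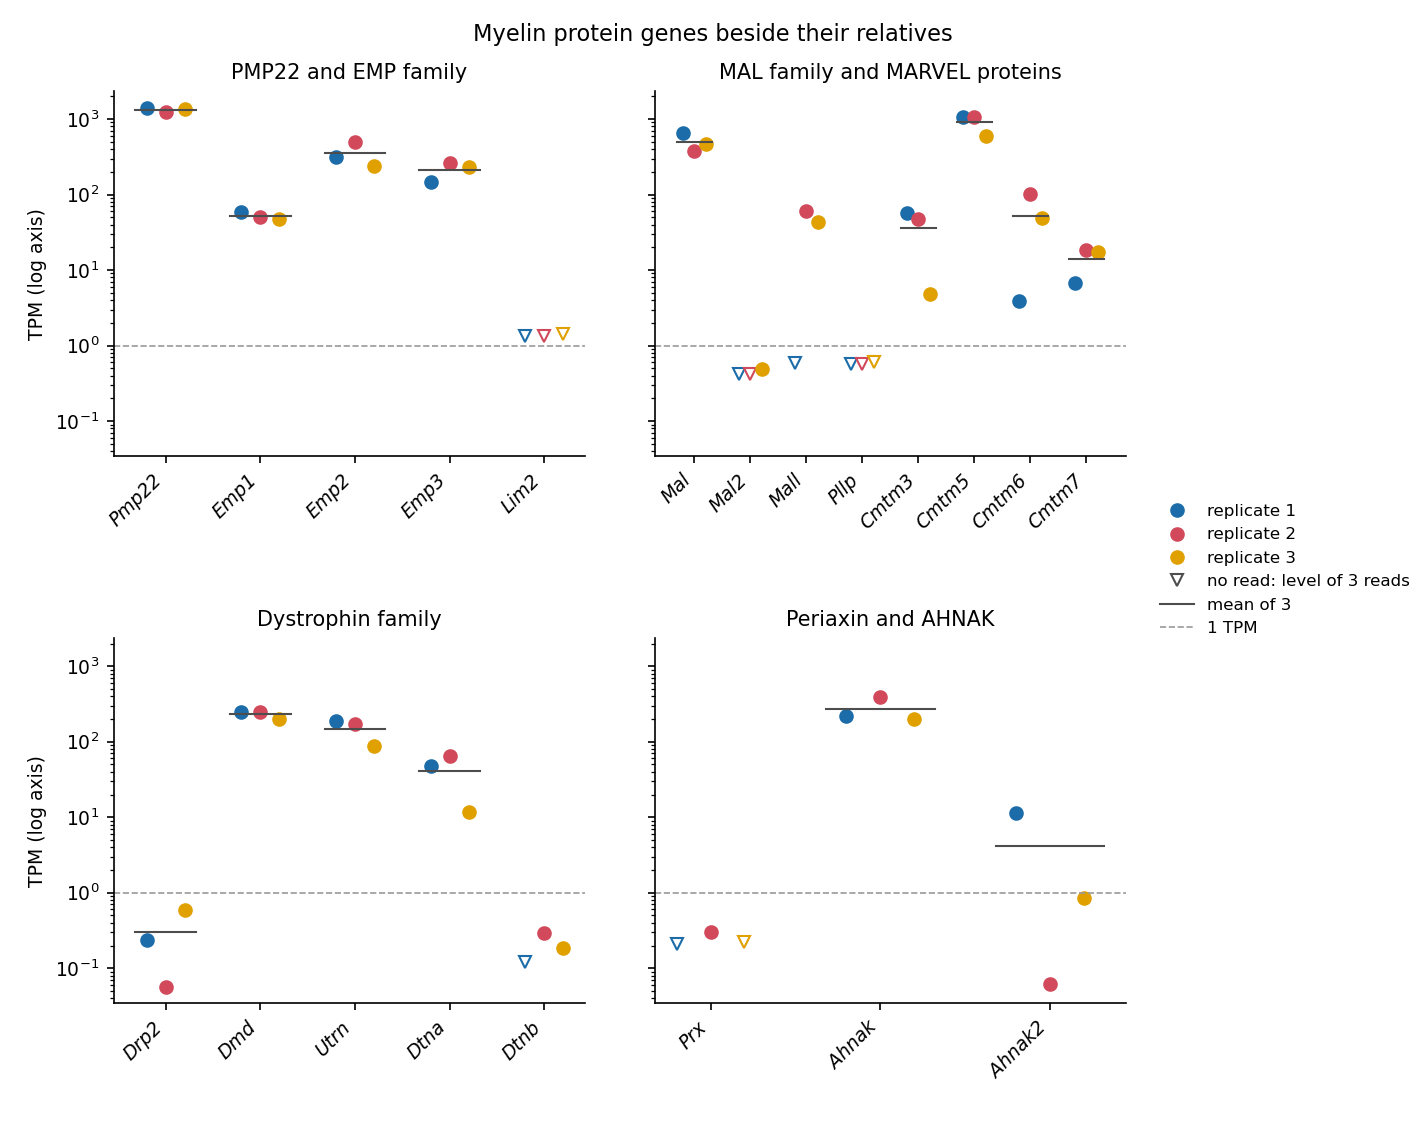
Family relatives of the myelin protein genes. The vertical axes are TPM on a log scale, each point is a library and the dashed line marks 1 TPM. An open point is a library without a read, drawn at the level that 3 reads would give. The bar is the mean, drawn only for genes with a read in every library. Pmp22 stands above Emp1, Emp2 and Emp3, Mal stands below Cmtm5, and Drp2 and Prx stand below 1 TPM in all libraries.

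Among 20 other genes of myelin and myelinating Schwann cells, 8 lay above 1 TPM, 2 below, 9 were called neither and 1, Pllp, had no read. For all genes tested the shares were 16.2% above and 13.5% below. Of the abundant genes in the list, Cryab, a small heat shock protein, had 1802, 1130 and 811 TPM. Art3, of the ADP-ribosyltransferase family, had 596, 629 and 698 TPM. Some of the listed components of the sheath were barely read, as Prx and Mag were. Gjb1, the gap junction protein of non-compact myelin, had 1, 3 and 0 reads. Cldn19, the tight junction claudin of Schwann cells, had 0, 2 and 1 reads, and Fa2h, which hydroxylates the fatty acids of myelin lipids, had 0, 0 and 1. Other genes of the list were read far more. Gjc3, another gap junction gene, had 154, 267 and 193 TPM and Dhh 77.7, 45.2 and 65.1 TPM, and both lay above 1 TPM. Ugt8a had 10, 377 and 112 reads and Gal3st1 had 92, 0 and 279, and both were called neither.

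The transcription factors that turn on these genes were not all read. Sox10, which peripheral glia keep throughout life, had 26.7, 165 and 51.6 TPM and lay above 1 TPM (limma, adjusted p = 0.0273). Egr2, which acts with Sox10 to drive the myelin genes, had 5 reads in replicate 3 (0.646 TPM) and none in replicates 1 and 2 (limma, adjusted p = 0.0995). Pou3f1, which precedes Egr2 in Schwann cells about to myelinate, had no read in any library, where 3 reads would be 0.305, 0.305 and 0.326 TPM. Pou3f2, a close relative with an overlapping role, had 121, 31.0 and 30.2 TPM (limma, adjusted p = 0.0232).

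Nab1, a cofactor of the EGR proteins, had 145, 129 and 435 TPM, while its partner Nab2 had 0, 6 and 5 reads. Zeb2, a repressor needed for Schwann cells to differentiate, had a mean of 170.4 ± 10.6 TPM (SD, n = 3). Of the 12 factors listed, 7 lay above 1 TPM, 1 below, 3 were called neither and 1 had no read. The shares over all genes tested were 16.2% above and 13.5% below. Mbp and Sox10 were both highest in replicate 2 and lowest in replicate 1, and Mbp was 0.462, 0.641 and 0.570 times Sox10 in the 3 libraries.

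Among 11 genes of immature Schwann cells and inhibitors of myelination, 4 lay above 1 TPM, 2 below and 5 were called neither. Of all genes tested, 16.2% lay above and 13.5% below. Ednrb, the endothelin receptor that delays the maturation of Schwann cell precursors, had 2289.7, 1048 and 1522 TPM. Id2, an inhibitor of differentiation, had a mean of 212 ± 47.0 TPM and Hes1, a target of Notch signalling, of 74.9 ± 30.5 TPM (SD, n = 3). Jun, which counteracts Egr2 in injured Schwann cells, had 3.59, 45.7 and 11.7 TPM, and Sox2 had 19.6, 51.7 and 1.47 TPM. Neither Jun nor Sox2 passed the test (limma, adjusted p = 0.0757 and 0.129).

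**Figure D4:**
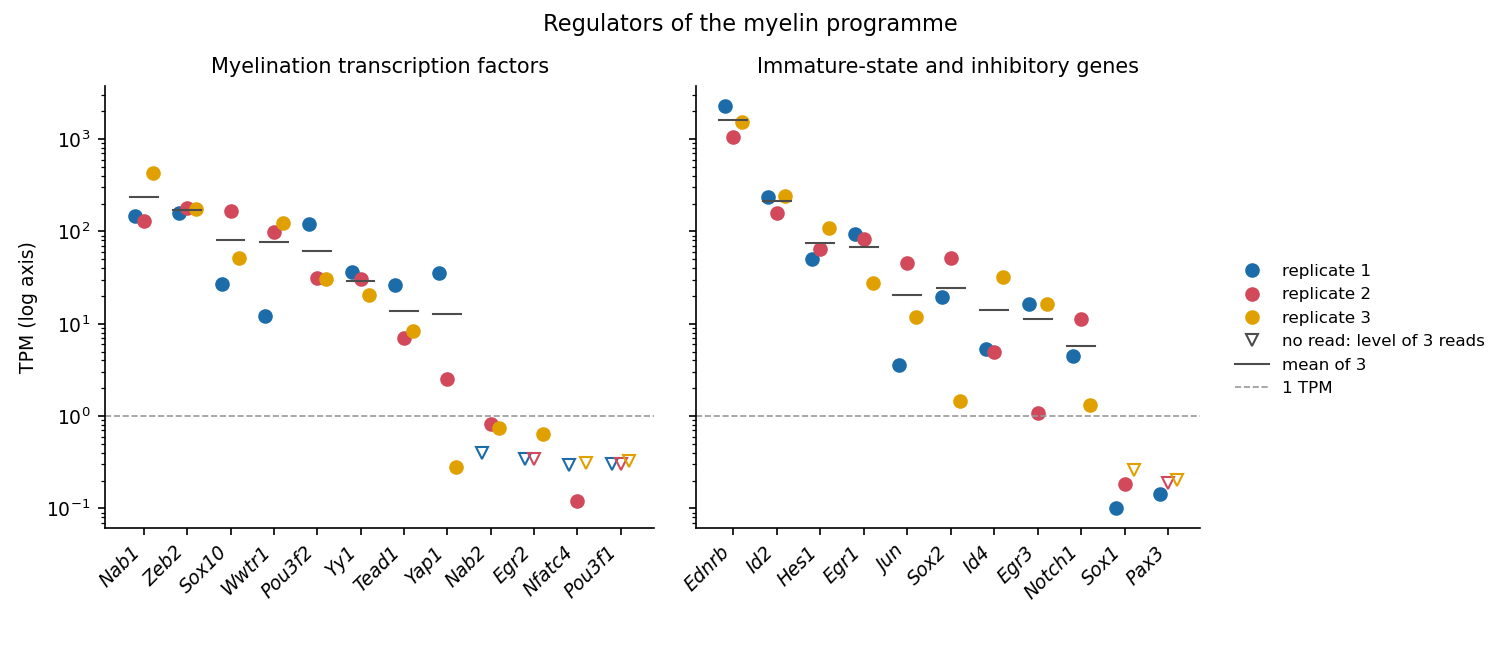
Regulators of myelination in the 3 libraries. The vertical axes are TPM on a log scale, each point is a library and the dashed line marks 1 TPM. An open point is a library without a read, drawn at the level that 3 reads would give. The bar is the mean, drawn only for genes with a read in every library. In the left panel Sox10, Nab1 and Zeb2 lie above the line in every library while Egr2 and Pou3f1 lie below it in every library. In the right panel Ednrb is the highest gene.

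Dystroglycan, which Drp2 and periaxin join, and other genes listed with it were widely read. Reads per gene do not show which of these proteins share a complex with Drp2. Of 16 genes listed for dystroglycan and its partners, 11 lay above 1 TPM and 5 were called neither. By comparison, 16.2% of all genes tested lay above. Dag1, which encodes dystroglycan itself, had 79.01, 126 and 51.2 TPM. Sgcb, a sarcoglycan, had a mean of 165 ± 46.5 TPM, and Lama2, the laminin chain that dystroglycan binds in the basal lamina, of 122 ± 52.9 TPM (SD, n = 3). Transcripts of Dag1, Utrn, Dmd and Lama2 were thus read in all 3 libraries, in which Drp2 and Prx had at most 12 reads. The proteins were not measured.

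Genes of the node, paranode and internode were mixed. Of 17 measured, 6 lay above 1 TPM, 3 below and 8 were called neither. Among all genes tested, the shares were 16.2% above and 13.5% below. Cadm1, an adhesion molecule of the synapse and glia, had a mean of 206 ± 49.8 TPM, Epb41l2, a cytoskeletal adaptor of the Schwann cell internode, 140.3 ± 33.4 TPM and Cadm2, an axonal adhesion molecule, 49.6 ± 13.2 TPM (SD, n = 3). Nfasc, whose glial form sits at the paranode, had 6.12, 8.49 and 0.332 TPM, and Cntn1 had 13.4, 0.756 and 9.14 TPM. Cadm4, the glial partner at the internode, had 237 reads in replicate 2 against 0 and 3 in the others. Gldn (gliomedin), with which Schwann cell microvilli gather sodium channels at nodes, had 1 read in all.

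The libraries held reads on genes listed for several cell types. Bulk samples do not show whether such reads came from separate cells. Fewer cells of a type and less RNA per cell cannot be told apart either. They yielded 8236740, 8037698 and 7721637 reads on genes, and 1 read on a gene of 1 kb was worth 0.391, 0.391 and 0.418 TPM. Lepr itself was read in every library, at 363, 32.1 and 54.0 TPM, highest in replicate 1, where Mbp was lowest, and lowest in replicate 2, where Mbp was highest. Its part in the spread of Mbp was not tested. For each list that follows, the shares over all genes tested were 16.2% above 1 TPM and 13.5% below. Of 18 genes of satellite and non-myelinating glia, 12 lay above 1 TPM and 6 were called neither. The list had a sum of 29831 to 34725 TPM that was lowest in replicate 2, where Mbp was highest, and a few genes held most of it. Among the 6 called neither, Ngfr had 23, 1 and 1 reads, Gfap 30, 0 and 1, and Gap43 0, 1 and 9. Sox10, described above, is also in that list. Of 12 perineurial genes, the cell type named in the series title, 4 lay above 1 TPM, 1 below, 6 were called neither and 1 had no read. Krt19 was the perineurial gene without a read. Cldn1, a claudin of the perineurial barrier, had 216, 246 and 220.5 TPM and Slc2a1, a glucose transporter there, 1.59, 34.0 and 0.507 TPM, and the list summed to 469 to 737 TPM, highest in replicate 2. Of 10 fibroblast genes 6 lay above, with sums of 4518 to 6721 TPM, and 10 endothelial genes had 3 above and a sum of 451 TPM in replicate 2, against 332 and 308 TPM in replicates 1 and 3. Mural genes had 5 of 10 above (sum 135 to 500 TPM), and neuronal genes 2 of 14 (sum 126 to 343 TPM, highest in replicate 3). The neuronal count lay near the share above over all genes tested. Macrophage genes, with 0 of 12 above in limma's adjusted, unadjusted and trend tests, summed to 172 TPM in replicate 2, against 3.19 and 104 TPM in replicates 1 and 3. Different genes made up most of that sum in different libraries. Fcer1g (1, 194 and 0 reads) and Cd68 (0, 196 and 0 reads) led in replicate 2 and Tyrobp (75.3 TPM) in replicate 3, while Csf1r had 3, 5 and 7 reads. The macrophage sum had the same order over the libraries as Mbp, and the perineurial and endothelial sums shared only its highest library. Their part in the spread of Mbp was not tested.

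Other sources of the member transcripts were looked at through lists of marker genes. Over all genes tested, limma's adjusted test called 16.2% above 1 TPM and 13.5% below. Oligodendrocytes also make Mbp, Mag, Mal and Cnp. Of 12 genes listed for oligodendrocytes, not all of them confined to these cells, 0 lay above 1 TPM in limma's adjusted, unadjusted and trend tests. In the adjusted test 2 lay below, 6 were called neither and 4 had no read. Mog, the gene of a surface protein of central myelin, was among the 4. The oligodendrocyte list summed to 1.02, 1.16 and 9.76 TPM. Myrf, with 164 reads in replicate 3, held 8.02 TPM of the sum there. Of 12 lymphocyte genes, whose cells also make Mal, 0 lay above 1 TPM in the same 3 tests, 3 lay below, 2 were called neither and 7 had no read, with sums of 0.660, 1.01 and 3.31 TPM.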

How the data were processed

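RNA was measured in 3 Smart-Seq2 libraries of sorted cells, per the labels' protocols. The deposited values are log2 TPM for 52550 genes, made by the authors with STAR and featureCounts on mm10 (GRCm38), per the submitters' processing notes; the sources used here give no versions, annotation release or strand setting. By the values, 0.25 read had been added per gene ahead of the length division. Whole reads were recovered within 0.0001 of a read for 52549 genes, with GENCODE M21 exon lengths for 49419 and lengths solved from the values for 3130, among them Mbp at 8403 bases. Where a library has no read, its value is that added 0.25 read alone and the text gives reads; means, SDs and tests use the deposited values. The planned filter of a value above 0 was read as at least 1 read in at least 1 library and kept 27396 genes.

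limma 3.58.1 tested each gene's mean log2(TPM + 1) against the value that 1 TPM takes (R 4.3.3, two-sided, Benjamini-Hochberg over all genes tested, threshold 0.05). Many genes share an adjusted p of 0.0488, set by the adjustment. This scale understates differences of low genes. Because TPM is relative to the library total, a gene that takes more of it lowers all others, and mitochondrially encoded genes took 19.88% to 21.12%. The test was checked on simulated data. Neighbours in the order of levels were compared with an exact sign-flip test over 3 libraries. Other work used Python 3.11.15, numpy 2.4.6, pandas 2.3.3, scipy 1.17.1 and matplotlib 3.10.9. Where nothing says that replicates came from separate animals, p-values measure only the spread between libraries.

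The members and lists were chosen with earlier results of these data known. All 8 members were described, together with all members of their protein families. Of each other list, genes named by rule were the 3 with the highest mean among those called above 1 TPM and the first 2 listed, and the other list genes named (such as Pou3f1, Lama2, Gldn and Cadm4) were chosen after their values were seen; of marker lists only some such genes are printed. Alternatives were other pseudocounts, filters and levels, a variance trend, removal of mitochondrially encoded genes and leaving out each replicate. Promoter windows were matched for 6 of the 8 genes. Mbp was left out before windows were looked up, and Drp2 matched none. Some genes that the rule selects are not reported here.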

Additional observations from a re-analysis of the deposited data

How the results depend on the processing

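Pmp22, Mal and Cnp stayed above 1 TPM in every alternative run except without replicate 1 or 2 (limma, adjusted p up to 0.0713). The number of myelin genes above ran from 0 to 3 with a replicate left out, against 4, and that of all genes above from 0 to 2435, against 4425 (4647 and 4453 at an unadjusted p under 0.05 without replicates 1 and 2). Myelin genes below numbered 1, against 2 with a pseudocount of 0.1 TPM or without the filter on reads, 4 with a variance trend or at a level of 2 TPM, and 0 with a filter of a mean of 0.5 TPM, at a level of 0.5 TPM, without mitochondrially encoded genes and without any 1 replicate (0 to 0). All genes below numbered 3696, against 29850.0 without the filter, 9647 with the trend, 10962 at 2 TPM, 0 to 4888 with a replicate left out, and 0 with the filter on the mean, at 0.5 TPM or without mitochondrially encoded genes (0, 808 and 6223 at an unadjusted p under 0.05); the filter removes the genes that can lie below. The cause of the other shifts was not tested. Without mitochondrially encoded genes the 8 genes held 0.265% of TPM, against 0.211%. With a replicate left out, Drp2 minus Ncmap ran from -0.16 (without replicate 3) over -0.10 (without replicate 1) to 0.31, against 0.02, and Prx minus Mag from -0.0095 (without replicate 2) to 0.10, against 0.06. Without replicate 2 no read remained on Prx or Mag, so the value of -0.0095 comes from gene length alone. At this depth levels under about 0.6 TPM rest on a few reads. No paired analysis was possible because all libraries belong to 1 group.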

Other observations

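The genes whose levels followed Pmp22 most closely over the 3 libraries, by the Euclidean distance of centred log2(TPM + 1) among 8308 protein-coding genes averaging 5 TPM or more, were Gpam, Mphosph6 and Ubr1, at distances of 0.03, 0.03 and 0.04. For Mbp, the 3 closest included Arid1a and Chd1, at 0.08 and 0.10, and Chd1 had 10.8, 84.7 and 25.4 TPM beside 12.4, 106 and 29.4 TPM of Mbp. With 3 libraries a close distance is a description of these libraries only.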
